A study of Mus musculus with 4 samples.

Results

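The genes described here are 32 named markers of macrophages and neutrophils, chosen by name from the probe annotation of the arrays, older symbols included. All 32 were found, with 49 probes, among 27657 genes or transcripts with 41155 probes. Expression was measured with 4 arrays of a 1-colour mouse design, each hybridised with Cy3-labelled RNA made from 0.25 ug of total RNA. Mixture, 1 array, is RNA of Swiss Webster mice in which lung, liver, spleen, thymus, kidney, heart and day 11 embryo have equal weight. The other 3 arrays hold neural progenitor cell (NPC) lines, which are cultured cells derived from embryonic stem cells and able to form neurons and glia. NS21 came from the stem cell line 21 and NSEB5-2C from EB5, both labelled 129/Ola, and NS195R came from 195R, labelled 129/Sv. No label gives a treatment for the lines. The source name of Mixture goes against its other labels, since it reads as an NPC line given doxycycline, but the array carries blood cell and tissue markers. The study compared the lines with Mixture to pick genes that stand out in neural progenitors.

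Each line was hybridised 1 time, so a line is both the cell source and the array, and the spread between lines mixes both. Mixture has no replicate. Every ratio to Mixture also sets 1 strain against others, so strain and cell source cannot be told apart. The same holds for fewer cells of a type and less RNA per cell. Of 43379 spots that were not controls, between 23983 and 26840 per array were well above background, which is the flag the scanner software sets when a spot clearly exceeds its background. Genes measured on all 4 arrays had a median log2 ratio of lines to Mixture of 0.71, and relative to them the ratios given here are lower by that amount. All 8 T cell, 6 B cell and 5 erythroid markers were well above background in Mixture. The neural progenitor genes Nes, Vim, Msi1 and Pax6 were so in every line, Sox2 in all but NS21, and Fabp7 in NS195R alone.

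Macrophages and neutrophils are white blood cells that take up and destroy microbes and dead cells. Their shared lineage is set up by the ETS factor PU.1, made by Spi1, and macrophages depend on signals through the CSF1 receptor. They read antibody-coated targets through Fc receptors, kill with the NADPH oxidase and granule proteins, and in most adult organs live as resident cells, with microglia as the resident form of the brain. Microglia arise outside the neural lineage.

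For 6 of the 32 genes the letters upstream of their starts are shown, and all 6 hold the motif marked below. First is C1qb, which stayed measurable in every line, next to its neighbour C1qc, which did not. Then follow Cd68, measurable in every line, and Ctss, Mpo and S100a8, which fell far. The sequences are the 250 bases before each start, from RefSeq on GRCm38.p6, at chr4:136886201-136886450 (- strand), chr4:136892915-136893164 (- strand), chr11:69666171-69666420 (- strand), chr3:95526536-95526785 (+ strand), chr11:87793534-87793783 (+ strand) and chr3:90668821-90669070 (+ strand). Capitals mark GAGGAA, the core that PU.1 is known to bind, or the same letters on the other strand.
C1qb: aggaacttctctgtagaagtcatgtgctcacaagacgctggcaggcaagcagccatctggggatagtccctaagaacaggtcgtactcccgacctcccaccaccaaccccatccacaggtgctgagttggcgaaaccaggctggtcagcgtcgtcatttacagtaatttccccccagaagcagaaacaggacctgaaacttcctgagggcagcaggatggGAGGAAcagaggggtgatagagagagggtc
C1qc: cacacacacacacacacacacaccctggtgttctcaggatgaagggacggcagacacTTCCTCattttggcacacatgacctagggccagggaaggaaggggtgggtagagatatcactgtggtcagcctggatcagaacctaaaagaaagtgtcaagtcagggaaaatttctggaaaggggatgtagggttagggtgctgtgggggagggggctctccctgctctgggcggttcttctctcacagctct
Cd68: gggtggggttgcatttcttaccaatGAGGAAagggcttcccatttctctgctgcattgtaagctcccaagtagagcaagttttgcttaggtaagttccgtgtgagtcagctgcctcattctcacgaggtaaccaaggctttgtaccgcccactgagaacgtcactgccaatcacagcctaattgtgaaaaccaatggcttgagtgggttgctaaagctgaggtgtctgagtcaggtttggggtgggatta
Ctss: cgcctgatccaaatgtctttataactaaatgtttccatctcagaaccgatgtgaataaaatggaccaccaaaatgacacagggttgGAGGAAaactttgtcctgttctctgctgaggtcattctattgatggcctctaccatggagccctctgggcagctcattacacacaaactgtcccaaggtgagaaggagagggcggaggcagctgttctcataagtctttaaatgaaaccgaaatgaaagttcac
Mpo: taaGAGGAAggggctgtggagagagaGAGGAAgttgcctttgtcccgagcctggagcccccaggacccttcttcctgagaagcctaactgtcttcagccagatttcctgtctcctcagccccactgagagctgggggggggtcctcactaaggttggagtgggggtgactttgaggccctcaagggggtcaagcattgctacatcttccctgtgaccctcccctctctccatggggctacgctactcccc
S100a8: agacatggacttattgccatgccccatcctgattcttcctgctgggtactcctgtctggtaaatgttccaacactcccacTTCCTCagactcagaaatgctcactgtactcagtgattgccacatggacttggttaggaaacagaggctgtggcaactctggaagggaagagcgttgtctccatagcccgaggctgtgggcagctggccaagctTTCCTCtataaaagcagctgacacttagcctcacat
Of the 32 genes, 24 matched an entry in the promoter table (not Emr1, C1qa, Cd14, Csf1r, Msr1, Ncf4, Spi1 and Tyrobp), and for genes with several starts the first listed was used. Either strand held GAGGAA in 15 of the 24, or 62.5%, against 23.1% of 27025 genes with the same window. It was missing in Lyz2, S100a9 and Camp, which also fell far, and in Fcer1g and Ncf1, measurable in every line. Ngp, Cybb, Cd163 and Fcgr2b lacked it too. The longer GAGGAAGT, which contains GAGGAA, stood in C1qc, Mpo and S100a8, 12.5% against 2.44% of all genes. For TTGCNNAA, a C/EBP motif that contains neither, the count was 5 of 24, or 20.8% against 9.55%, in Cd68, Fcgr3, Ltf, Ngp and S100a9. These are counts of letters in a window, and no binding was measured.

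All 32 genes were well above background in Mixture, as were 86.6% of all genes tested, and all 32 were lower in each of the 3 lines. With limma, 24 of 32 passed as lower and 0 as higher (Benjamini-Hochberg adjusted p under 0.05 over 19820 genes tested), with 29 lower and 0 higher at an unadjusted p under 0.05, where 15.4% of all genes were lower. Over all genes tested, 8.91% were called lower and 0.943% higher (8.22% and 2.97% with quantile normalization, 9.91% and 4.87% with normexp, 9.08% and 2.39% with an intensity trend, 7.11% and 1.9% with no filter). The median log2 ratio of the 32 was -8.60, against 0.44 for all genes tested, and it was -4.29 with normexp, another background correction, whose offset pulls in ratios of dim spots. The summed processed signal of the 32 probes was 111553 in Mixture and 246, 189 and 395 in NS21, NS195R and NSEB5-2C. Leaving out any 1 line (NS21, NS195R or NSEB5-2C) ended all calls, with 0 of 32 and 0% of all genes past the adjusted test. At an unadjusted p under 0.05 between 28 and 30 of the 32 were lower, against 14.3% to 17.1% of all genes. It moved the ratio of 4 called genes by over 1.5-fold, in log2: without NS21 to -9.73 for Aif1 and -13.17 for S100a9, and without NSEB5-2C to -11.53 for Lyz2, -10.44 for S100a8 and -11.61 for S100a9. It also moved 6 genes that were not called, by the most for Cd14 (-4.89, or -3.67 without NS21 and -6.29 without NSEB5-2C), Cd163 (-4.62, or -5.95 without NS195R), Cybb (-6.45, or -7.78 without NSEB5-2C), Ncf4 (-8.99, or -10.27 without NS21), Trem2 (-4.81, or -5.87 without NS21 and -3.55 without NS195R) and Laptm5 (-7.48, or -8.33 without NSEB5-2C).

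**Figure D1:**
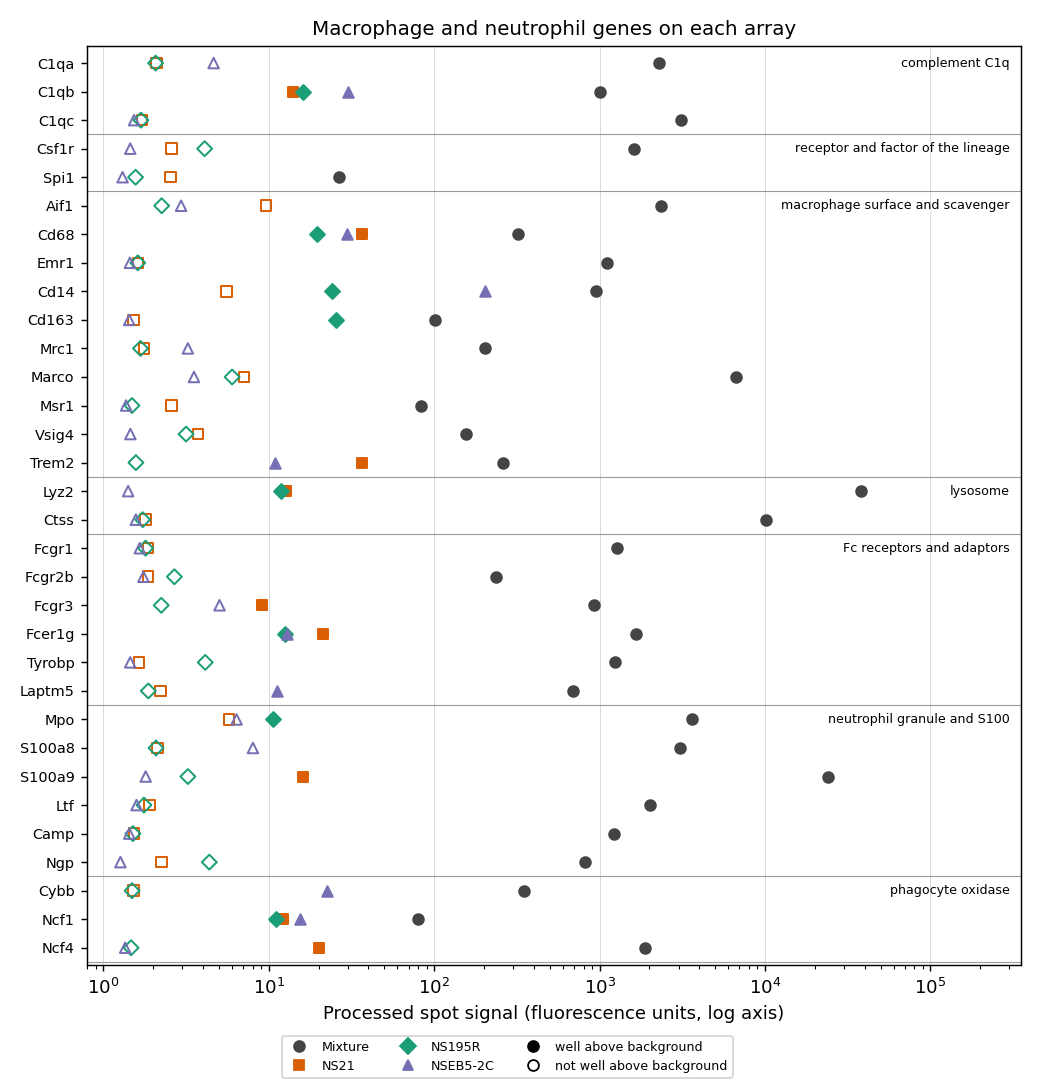
Processed spot signal in fluorescence units (log axis) of the probe kept for each of the 32 genes, grouped by role, with 1 symbol per array and filled symbols where the spot was well above background. Every Mixture symbol lies to the right of every NPC symbol of the same gene, and 18 genes have no filled NPC symbol.

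Detection sorted the genes into 4 classes. In no line were 18 genes well above background, against 11.9% of genes measured in Mixture, or 10.3% of all genes tested. In 1 line 7 genes were detected, in 2 lines 3, and in all lines 4, against 74.2% of genes measured in Mixture. By line the count was 9 of 32 for NS21 and 8 each for NS195R and NSEB5-2C, while of all genes well above background in Mixture 81%, 82.5% and 79.9% were so in these lines. A weaker flag, which asks only that a spot differ significantly from background, gave 20, 18 and 16 of 32, against 90.2%, 91.4% and 88.8%. The 18 undetected genes were all called lower, where 74.8% of the genes in that class were called. For them the SE is the spread of readings at or near background, 13 of the 18 having passed the weaker flag in at least 1 line, and the fold is a bound, from 3.63 for Spi1 to 1391 for Ctss. Because a brighter Mixture spot allows a larger bound, the bounds do not rank the genes. For the 10 genes detected in 1 or 2 lines, the fitted ratio also uses the dim readings of the other lines. With these raised to the array's lowest detected signal, the change was at least 3616-fold for Lyz2, 2496.7-fold for S100a9, 426-fold for Mpo, 181-fold for Ncf4 and 117-fold for Fcgr3. For Laptm5, Cybb, Cd14, Trem2 and Cd163 it was at least 78.1-, 31.4-, 27.1-, 17.1- and 8.92-fold.

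**Figure D2:**
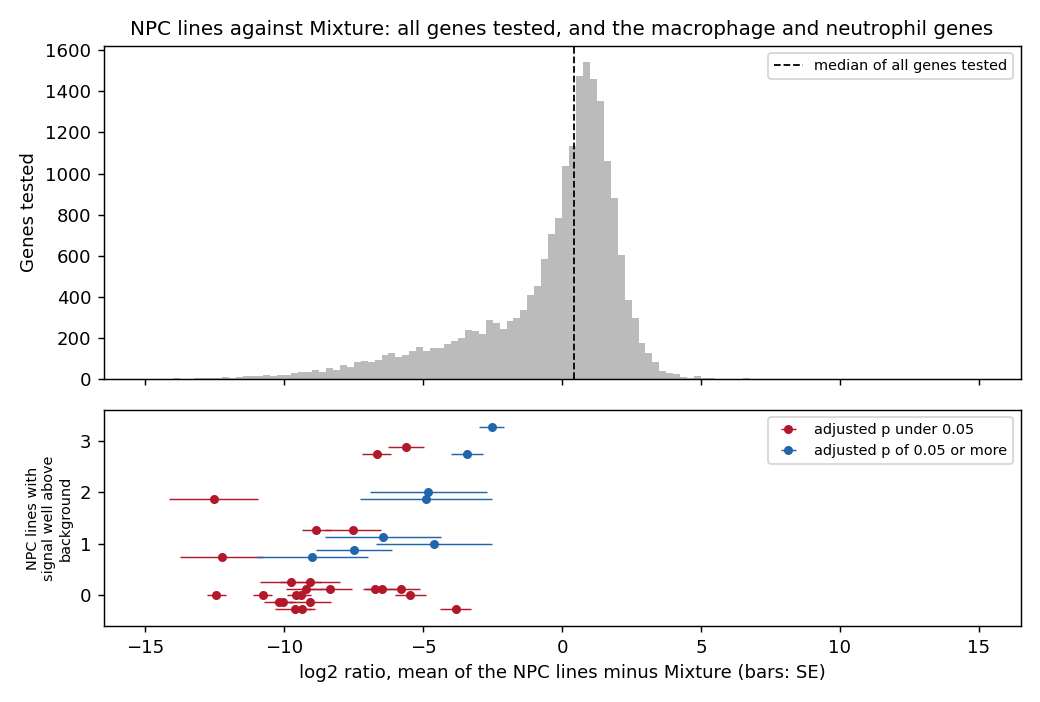
Upper panel, number of genes tested by log2 ratio of the NPC mean to Mixture, with the median of 0.44 dashed. Lower panel, the 32 genes with their SE, placed by the number of lines in which they were well above background (the vertical scatter within a row only separates points). All 32 lie below 0, and the 8 genes that did not pass limma were each well above background in at least 1 line.

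The receptor and the factor of the lineage were below detection in every line. Csf1r, the receptor for CSF1 and IL-34, had a processed signal of 1604 in Mixture, 2.58 in NS21, 4.10 in NS195R and 1.46 for NSEB5-2C. It was at least 219-fold lower (limma adjusted p = 0.0136), and its 2 other probes were also not well above background in any line. Spi1, the gene of PU.1, was dim even in Mixture, at 26.5, and read 2.54, 1.57 and 1.31 in the same order of lines. Its bound was 3.63-fold (limma adjusted p = 0.0462). This call did not hold with normexp (log2 ratio -0.46, adjusted p = 0.167), quantile normalization (-3.11, 0.0705) or median scaling (-3.08, 0.0715). Both ligands of the receptor were well above background in all lines. Csf1 read 431 in Mixture, 837 in NS21, 705 in NS195R and 2484 for NSEB5-2C, and Il34 read 368, 107, 542 and 969. Neither passed limma (log2 ratio 1.50, SE 0.99, adjusted p = 0.387, and 0.16, SE 1.52, 0.952), and at an unadjusted p under 0.05 the count was also 0 of 2.

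C1q opens the classical complement cascade and is built from 3 chains whose genes lie side by side on chromosome 4 with no other coding gene between them, in the order C1qb, C1qc, C1qa of the RefSeq annotation. All 3 were called lower. C1qc read 3109 in Mixture, 1.72 in NS21, 1.69 in NS195R and 1.54 for NSEB5-2C. Its neighbour C1qa read 2300.0, then 2.10, 2.07 and 4.65. The bounds were 425-fold for C1qc and 314-fold for C1qa (limma adjusted p = 0.00846 and 0.0134). C1qb stood apart from its neighbours, with 1000.4 in Mixture and 14.0, 16.2 and 30.0 in the lines, all well above background. Each of the 3 genes had 1 probe, so no second probe could check the signal left for C1qb. C1qb fell 49.2-fold (SE 0.65 log2, limma adjusted p = 0.0297), a call that median scaling moved to 0.0554.

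Among 10 genes grouped here as macrophage surface and scavenger 6 were called lower and 4 were not. Emr1, now Adgre1, which encodes the macrophage antigen F4/80, read 1107 in Mixture and 1.62, 1.62 and 1.45 in NS21, NS195R and NSEB5-2C. Marco, a scavenger receptor for bacteria, read 6639, then 7.11, 6.01 and 3.54, and Aif1, which encodes the microglia and macrophage marker IBA1, read 2336, then 9.66, 2.25 and 2.95. Their bounds were 151-, 908- and 289-fold (limma adjusted p = 0.00846, 0.00909 and 0.0309). The mannose receptor gene Mrc1 (204 in Mixture), the scavenger receptor gene Msr1 (82.9) and the complement receptor gene Vsig4 (155) read between 1.37 and 3.75 in the lines, with bounds of 27.9-, 11.3- and 21.2-fold (limma adjusted p = 0.0203, 0.0234 and 0.0323). None of these 6 was well above background in a line.

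The other 4 genes of the surface and scavenger group kept signal in some lines. Cd14, the co-receptor for bacterial lipopolysaccharide, read 956 in Mixture, 5.54 in NS21, 24.2 in NS195R and 202 for NSEB5-2C. NSEB5-2C thus lay 4.24-fold below Mixture and NS21, not well above background, at least 123-fold below it. Cd14 had the widest spread between lines of the 32, with an SD of 2.64 log2. Its log2 ratio to Mixture was -4.89 (SE 2.38, limma adjusted p = 0.270). Trem2, a lipid-sensing receptor of microglia and other macrophages, read 259 in Mixture, 36.8 in NS21, 1.57 in NS195R and 10.9 for NSEB5-2C. Cd163, which takes up haemoglobin, read 101 in Mixture and 25.5 in NS195R, and 1.53 and 1.43 in NS21 and NSEB5-2C. Neither passed limma, with log2 ratios of -4.81 (SE 2.12, adjusted p = 0.236) for Trem2 and -4.62 (SE 2.09, 0.246) for Cd163. Cd68, a lysosomal protein used as a macrophage marker, read 323 in Mixture and 36.8, 19.5 and 29.8 in the lines, which lay closer together than those of the other 3 genes. Its log2 ratio was -3.43 (SE 0.57, limma adjusted p = 0.0609), and it passed with normexp (-1.95, 0.0250) and with centring on genes measured on all arrays (-3.96, 0.0396), a scaling added after the values were seen.

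The group of Fc receptors and adaptors, in which Laptm5 was also placed, gave 5 calls of 6. Fcgr1, the high-affinity IgG receptor gene, read 1271 in Mixture and 1.86, 1.80 and 1.66 in NS21, NS195R and NSEB5-2C. The inhibitory receptor gene Fcgr2b read 236, then 1.87, 2.69 and 1.75, and Tyrobp, the adaptor DAP12 of TREM2 and other receptors, read 1235, then 1.64, 4.13 and 1.46. Their bounds were 174-, 32.3- and 169-fold (limma adjusted p = 0.00846, 0.0105 and 0.0162). Fcgr3, close to Fcgr2b in sequence and position, read 927, then 9.07, 2.24 and 5.04, well above background in NS21 alone. Its fitted ratio was -7.53 log2 (SE 1.0, limma adjusted p = 0.0394, or 0.0509 with quantile normalization and 0.0517 with no filter). Probes of Fcgr2b and Fcgr3 may share signal. Fcer1g, the common gamma chain, was well above background in all lines, at 21.4, 12.5 and 12.9 against 1666 in Mixture, and fell 102-fold (SE 0.53 log2, limma adjusted p = 0.0144). Laptm5, a lysosomal membrane protein of blood cells, read 690.1 in Mixture, 2.21 in NS21, 1.87 in NS195R and 11.2 for NSEB5-2C (log2 ratio -7.48, SE 1.36, limma adjusted p = 0.0714), and passed with normexp (-3.32, 0.00772).

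Both genes grouped here under lysosome, Lyz2 and Ctss, were called lower. The lysosomal Cd68 and Laptm5, placed in other groups, were not. Lyz2, which encodes the lysozyme of macrophages and neutrophils, read 38227 in Mixture, 12.7 in NS21, 11.8 in NS195R and 1.41 for NSEB5-2C. It was 2772-fold below Mixture in NS21, 3162-fold in NS195R and, not well above background, at least 5394-fold in NSEB5-2C (log2 ratio -12.54, SE 1.60, limma adjusted p = 0.0362, or 0.0504 with no filter). Signal of the related Lyz1 may be shared. The protease gene Ctss, used for antigen processing, read 10177, then 1.80, 1.73 and 1.57, at least 1391-fold lower (limma adjusted p = 0.00846). Of 12 lysosome genes that all cells use 0 passed limma, also at an unadjusted p under 0.05, with a median log2 ratio of -0.12. The protease gene Ctsd, for example, read 9829.9 in Mixture and 11625, 5887 and 7733 in the lines, which bracket Mixture.

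Granule and S100 genes of neutrophils were called in 6 of 6 cases. S100a9, a calcium-binding protein abundant in neutrophils, read 23899 in Mixture, 16.1 in NS21, 3.25 in NS195R and 1.81 for NSEB5-2C. Its partner and direct neighbour S100a8 read 3069, then 2.12, 2.08 and 8.03, so that only S100a9 in NS21 was well above background in this pair. S100a9 had a fitted ratio of -12.25 log2 (SE 1.50, limma adjusted p = 0.0330), or -11.29 with the dim lines raised, and S100a8 was at least 388-fold lower (0.0278). Mpo, the myeloperoxidase gene of the primary granules, read 3609, then 5.74, 10.7 and 6.40, well above background in NS195R alone, and was at least 426-fold lower (limma adjusted p = 0.00941). The genes of secondary granules were not well above background in any of the lines, although Ngp passed the weaker flag in NS21 and NS195R and Ltf in NS21. Ltf, lactoferrin, read 2007 in Mixture and between 1.59 and 1.91 in the lines, Camp, the cathelicidin, 1217 and between 1.44 and 1.54, and Ngp 821 and between 1.27 and 4.38. Their bounds were 274-, 166- and 112-fold (limma adjusted p = 0.00846, 0.00846 and 0.0213).

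The phagocyte oxidase was the group with 0 of 3 calls by limma, although all 3 had an unadjusted p under 0.05. The enzyme joins a membrane pair, made by Cybb and Cyba, to cytosolic subunits, such as those made by Ncf1 and Ncf4, and to a Rac protein, and passes electrons to oxygen. Cybb read 350.4 in Mixture, 1.53 in NS21, 1.49 in NS195R and 22.6 for NSEB5-2C. Ncf4 read 1871, then 20.1, 1.47 and 1.36, with signal in NS21 alone. Ncf1 read 79.9, then 12.2, 11 and 15.6, well above background in all lines. Their fitted log2 ratios were -6.45 (SE 2.08), -8.99 (SE 2.02) and -2.54 (SE 0.44), with limma adjusted p of 0.155, 0.0971 and 0.0651. With dim lines raised, Cybb and Ncf4 were at -4.97 and -7.50. With normexp Cybb (-2.72, 0.0316) and Ncf4 (-4.95, 0.00592) passed, and with centring on genes measured on all arrays Ncf1 did (-3.07, 0.0385). The partner subunit gene Cyba was highest in the line that held Cybb. Cyba read 2211 in Mixture, 12.6 in NS21, 16.8 in NS195R and 207 for NSEB5-2C. The membrane pair was thus highest in NSEB5-2C, and Ncf4 was highest in NS21. Rac1, which all cells use, read 4232, 6300.3, 6771 and 4845, while the blood cell form Rac2 read 2567, 4.65, 3.97 and 2.53.

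**Figure D3:**
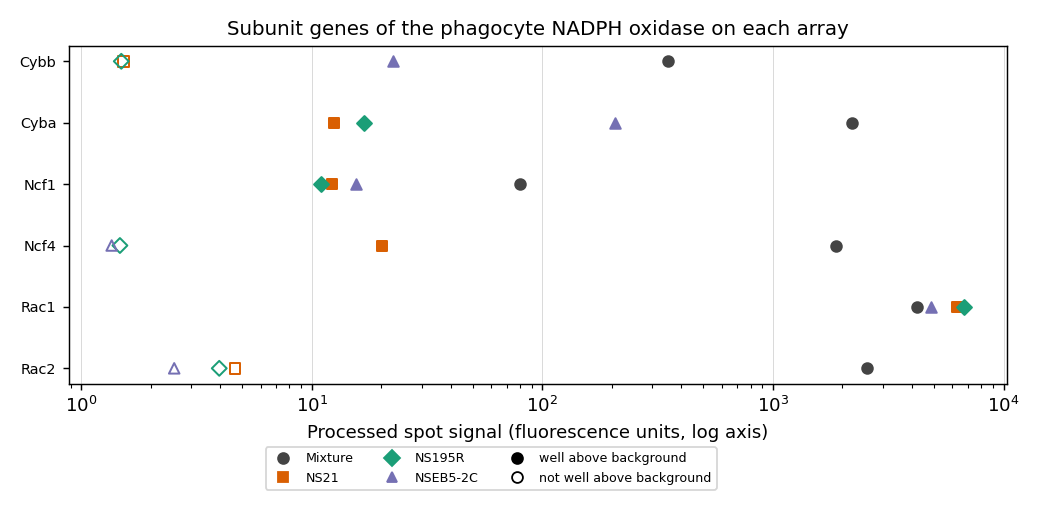
Processed spot signal (fluorescence units, log axis) of 6 subunit genes of the phagocyte NADPH oxidase on each array, with filled symbols well above background. Cybb and Cyba have their highest NPC symbol in NSEB5-2C (22.6 and 207) and Ncf4 in NS21 (20.1), while Rac1 lies between 4232 and 6771 on all 4 arrays.

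Differences between the lines were sizes without replication, since each line had 1 array. Dim signals were first set to the array's lowest detected signal. By a gap of at least 2-fold over each of the other lines, NS21 was highest for 3 of the 32 genes (Ncf4, Trem2 and S100a9), against 7.3% of all genes tested. NS195R was so for Cd163, 1 gene, against 10.3%, and NSEB5-2C for 3 (C1qb, Cd14 and Cybb), against 5.61%. By the same gap NS21 was lowest for Cd14, 1 gene, against 4.06%, and NS195R and NSEB5-2C were lowest for 0, against 5.88% and 6.3%. Cd14 in NSEB5-2C was 9.08-fold above NS195R, the next line. Trem2 in NS21 was 3.27-fold above NSEB5-2C by the kept probe, while its second probe, not well above background in any line, read lowest in NS21. Cd163 in NS195R was at least 3.35-fold above the next line, Cybb in NSEB5-2C at least 3.23-fold and Ncf4 in NS21 at least 3.08-fold. Since the rule lets a gene be highest in only 1 line, the lists of highest genes could not overlap. Limma called 0 of the 32 for each line (lowest adjusted p 0.708, 0.273 and 0.768 in the order NS21, NS195R, NSEB5-2C), as of 0% of all genes. At an unadjusted p under 0.05 there were 2, 1 and 4, against 5.72%, 10.5% and 5.82%. Repeated probes well above background but dimmer than 50 units had a median SD of 0.137 to 0.181 log2 within an array, with single probes up to 0.528, and the noise between arrays of 1 line was not measured.

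Several probes per gene gave a check on the signals left in the lines. All 49 probes were well above background in Mixture and lower in every line, and 34 were below detection in all lines. Of 14 genes with more than 1 probe, 7 had signal in a line. C1qb, Cd68, Cd14, Cd163, Mpo, Ncf4 and S100a9 also had signal in a line, but with 1 probe each they could not be checked. Laptm5 in NSEB5-2C was seen by 2 probes, at 11.2 and 8.88. For Ncf1 the second probe, at 87.6 in Mixture, read 1.57, 1.58 and 1.50 in NS21, NS195R and NSEB5-2C, where the first probe's ratios would put it at 13.4, 12.1 and 17.1, so that the probes of Ncf1 disagree. The second Trem2 probe read 3.29 in NS21, where 8.86 would follow from the first, and 6.90 in NS195R and 6.02 for NSEB5-2C. None was well above background, and NS21 was the lowest line by this probe but the highest by the first. The second Fcer1g probe read 2.78 in NS21, where 8.44 would follow. Of 6 line signals that a second probe should have shown at the first probe's ratio, 1 was well above background, that of Laptm5. For Cybb, Fcgr3 and Lyz2 the second probe is too dim in Mixture for a signal at the first probe's ratio to be well above background. Averaged over its probes, Ncf1 passed limma (log2 ratio -4.13, adjusted p = 0.0163).

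Other genes of these cells were taken from lists made by name. Of 10 pan-leukocyte genes 7 were called lower, with Ptprc, the leukocyte antigen CD45, at 1719 in Mixture and 1.88, 1.83 and 1.67 in NS21, NS195R and NSEB5-2C, at least 235-fold lower (limma adjusted p = 0.00846). Coro1a, an actin regulator, kept 96.8, 55.3 and 58.8 against 8259 and fell 113-fold (0.0143). Was, another actin regulator of blood cells, read 696 in Mixture, 49.9 in NS21 and 1.40 and 1.37 in the others and did not pass (0.191). Of 10 further granule genes 5 were called, among them Lcn2, at least 85.1-fold lower, and Elane, at least 11-fold lower. The list medians were -7.00 and -5.84 log2.

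Some signalling genes and factors stayed measurable in the lines. Of 19 myeloid receptor and signalling genes 9 were called lower, such as Pirb, at least 469-fold lower, and Clec7a, at least 89.2-fold. The toll-like receptor gene Tlr2 read 433 in Mixture and 294, 69.8 and 244 in the lines, the GM-CSF receptor gene Csf2ra 1417, then 1897, 566 and 242, and the kinase gene Lyn 1027, then 197, 1290.0 and 154, none past limma (adjusted p = 0.515, 0.654 and 0.554). Of 8 factors Irf8 (2244, then 6.42, 15.8 and 6.70), Nfe2 and Gfi1 were called (limma adjusted p = 0.0174, 0.0459 and 0.00872). Cebpb read 3119.8 in Mixture, 1106 in NS21, 321 in NS195R and 3427 for NSEB5-2C (0.601).

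Microglia genes gave no calls by limma, 0 of 5 tested, with 1 lower at an unadjusted p under 0.05. P2ry12 read 16.6 in Mixture and 18.9 in NS195R and was not well above background in the other lines. Siglech and Gpr34 were not well above background on any array. Tmem119, Olfml3 and Sall1, which other cells also use, were well above background in all lines. Brain is not among the organs pooled in Mixture, but the pool also holds day 11 embryo. In Mixture 5 of 6 neural progenitor genes were well above background.

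Markers of other cells in the pooled organs moved in the same direction. Limma called lower 5 of 8 T cell, 3 of 6 B cell, 4 of 6 endothelial and 4 of 5 erythroid genes. Their summed signals were 15240 in Mixture and 238 to 1435 in the lines for T cells, 2104 and 15 to 28.6 for B cells, 7074 and 84.4 to 498 for endothelium and 103992 and 21.6 to 25.6 for erythroid genes. Fibroblast genes had 0 of 6 calls, with 1 at an unadjusted p under 0.05, yet all 6 were lower in every line. Their median log2 ratio was -4.71, and their summed signal was 68081 in Mixture and 3520 to 11830 in the lines. Housekeeping genes had 0 of 10 calls, with 1 lower and 3 higher at an unadjusted p under 0.05, and a median log2 ratio of 0.03. The T cell sums rest on single genes, Lck with 213 of 238 in NS21 and Thy1 with 1374 of 1435 in NS195R and 237 of 323 in NSEB5-2C. The part of these cells in the results was not tested.

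**Figure D4:**
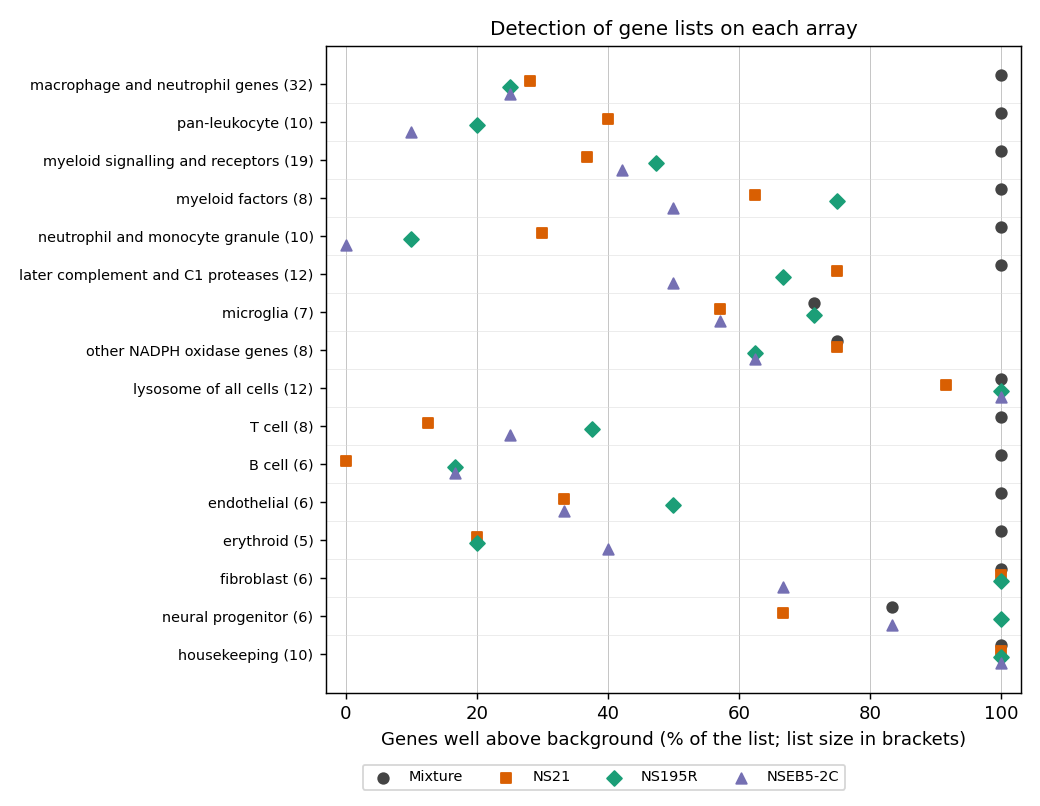
Percentage of each gene list well above background on each array, with the number of genes in brackets. Of the 32 macrophage and neutrophil genes all were detected in Mixture and 9, 8 and 8 in NS21, NS195R and NSEB5-2C, while housekeeping genes were detected on all 4 arrays.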

How the data were processed

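The deposited intensity of each spot was background-subtracted by the authors' scanner software, named in the file headers as Agilent Feature Extraction (version 9.5.3.1), which also set the flags used here. The deposited value table held the same intensity at all 45018 features and 0 columns of other samples. The 4 arrays shared 1 slide and 1 scan, so there was no batch to test. Replicate numbers of NPC stand for NS21 (1), NS195R (2) and NSEB5-2C (3).

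Here log2 processed signals were scaled to each array's percentile 75 over spots that were not controls. Flagged spots were left out, copies of a probe averaged, and 19 probes dropped. Names came from RefSeq transcripts, symbols and synonyms (GRCm38.p6 tables), and 8440 probes kept the file's name. Per gene, the probe with the highest mean log2 signal over all arrays was kept. Signal in the lines thus enters the choice, as for Ncf1, whose kept probe was the dimmer in Mixture (79.9 against 87.6). Kept probes with a spot well above background somewhere were tested with limma 3.58.1 in R 4.3.3 (lmFit, eBayes, two-sided, 2 residual and 1.33 prior degrees of freedom). The fit assumes that the single Mixture array varies like the lines. For the lines against Mixture, p-values measure the spread between the NPC arrays and hold no measure of the spread of Mixture. For 1 line against the others, they measure the spread between those other lines. For a bound, dim signals were set to the array's lowest signal well above background (or kept, if higher) before averaging.

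The members, lists and tests were chosen with earlier results of these data known. Every member is named. Of the other lists those well above background in a line, and up to 4 with the largest change, could be named. Some genes of these lists are not reported here, and the counts and medians include them. The main fit of NPC against Mixture was first tested on simulated data, for the error of its ratios. The fits between lines and the alternatives were not. For the probes, the build was not given in the sources used here. Alternatives covered background correction (normexp, offset 50), scaling, the filter, probe choice, the variance prior, the detection flag and leaving out each line.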

Additional observations from a re-analysis of the deposited data

Results flagged for a closer look

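In 2 genes of the other lists the lines opposed each other, with 1 line 4-fold or more over Mixture and another 4-fold or more under it. These differences between lines were not tested. Runx1, a blood cell factor, differed by 4.53 log2 between NSEB5-2C (339.8 units, against 84.2 in Mixture) and NS195R (15.9). Fabp7, a radial glia gene of the neural progenitor list, differed by at least 12.38 log2, highest in NS195R. None of the 32 macrophage and neutrophil genes met this rule.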

How the results depend on the processing

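No paired analysis was possible because Mixture has 1 sample. The count of the 32 genes called lower lay between 22 and 27 with normexp, quantile or median scaling, no filter, mean of probes, an intensity trend or centring on genes measured on all arrays, and was 0 among genes detected on every array, where 4 of the 32 could be tested and 0% of 12729 genes were called. Without NS21, NS195R or NSEB5-2C it was 0, as for 0% of all genes. Under these settings 0 were called higher. The median log2 ratio was -4.29 with normexp, -7.85 with median scaling, -7.35 with the mean of probes, -4.53 among genes measured on all arrays and -9.13 with centring on them, and -8.51 to -8.34 without a line. With the weaker flag 20, 18 and 16 genes were detected in NS21, NS195R and NSEB5-2C. The 8 cases at least 2-fold from both other lines became 1 with normexp and 1 among genes measured on all arrays. Median scaling moved the median ratio of all genes by 0.75 log2, quantile normalization by 0.12 and centring by -0.53. Every tested ratio of the 32 genes stayed below 0 under these settings. Dim signals, not array number alone, set the bounds, and 1 Mixture array limits every ratio.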

Other observations

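Complement genes beyond C1q, most of them made by liver, were lower in the lines as well. Of 12 such genes 5 were called by limma, with Cfb at least 2126-fold lower and C4b at 6440.5 in Mixture and 16, 19.3 and 6.61 in NS21, NS195R and NSEB5-2C. C3 read 77532, then 14.5, 23.3 and 154, and did not pass (log2 ratio -10.92, SE 1.68, limma adjusted p = 0.0527). C1ra and C1s, whose proteases act with C1q, read 1428 and 853 in Mixture and were well above background in all lines, at 13.6, 9.47 and 24.4 for C1ra and 13.6, 27.6 and 58.9 for C1s. As for C1qb, Cd14 and Cybb, the highest line for C1ra, C1s and C3 was NSEB5-2C. Other genes went differently, since C4b was lowest in that line, and Ncf4, Trem2 (by its kept probe) and S100a9 were highest in NS21. The summed signal of the 12 complement genes was also highest in NS21, at 621, with 417 for NSEB5-2C and 201 for NS195R. NSEB5-2C had the fewest of them well above background, 6, against 9 for NS21 and 8 for NS195R.

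The lysosomal gene Hexa was not well above background in NS21 (1.47 units), against 2918 in NS195R, 2344 in NSEB5-2C and 2534 in Mixture. Duox2, an oxidase of epithelia, read 1.67 in Mixture, under that array's lowest detected signal of 8.10, and 19.3, 42.3 and 13.1 in the lines. It was higher in 3 of 3 without passing limma (adjusted p = 0.0869), and the size of the rise is only a bound.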
